A study of Mus musculus with 4 samples.

Results

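The genes described here are named for proteins of the mitochondrial ribosome, the particle that translates the messenger RNAs made from mitochondrial DNA. They were chosen by name, as every row whose symbol begins with Mrpl or Mrps followed by a digit, and they are 76 of the 23700 rows of each expression table. By symbol, 47 belong to the large subunit (Mrpl) and 29 to the small subunit (Mrps). Mrps18a and Mrps30 carry small-subunit symbols, although their proteins are known to sit in the large subunit, and the symbols were followed. By name, 46 members have a counterpart in the bacterial ribosome and 30 are specific to mitochondria.

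RNA was measured in 4 libraries of helper T cells from the spleen of C57BL/6 mice that were 43 weeks old. Of these, 2 bear the genotype wild type (here WT 1, WT 2) and 2 the genotype RIPK1-KO (here KO 1, KO 2), and the series describes the knockout as specific to T cells. What drives the deletion, which exons it removes and what the suffix Ctrl in all 4 titles stands for were not given in the sources used here. RIPK1 is a kinase and scaffold downstream of the TNF receptor that takes part in NF-kB signalling and in cell death. The labels do not state if a group's 2 libraries come from different animals, so the p-values measure no more than the spread over these libraries, part or all of which may be technical.

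Each library gave 1 FPKM value per row, a unit in which a gene's fragments are divided by transcript length and by the library's mapped total. From the spacing of low values, depth was estimated at about 17500000 to 22000000 fragments. Ripk1 itself was measured at 5.61, 5.60, 10.4 and 9.54 FPKM in WT 1, WT 2, KO 1 and KO 2. It was thus higher in the libraries labelled KO (log2 change 0.73 ± 0.17 SE, limma adjusted p = 0.0262), which goes against their label, although the difference was no longer called under either scaling below, or without WT 1, WT 2 or KO 1 (adjusted p = 0.0991, 0.0552 and 0.109). If only some exons are deleted, an FPKM over all exons cannot check the label. WT and KO are therefore the labels of the libraries throughout, and every direction given rests on those labels.

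Proteins of the mitochondrial ribosome are encoded in the nucleus, made in the cytosol and imported, and they join ribosomal RNAs made inside the organelle. The finished particle translates only the few proteins encoded by mitochondrial DNA, which are core subunits of the respiratory chain and ATP synthase, so that both genomes contribute to the complexes that hold them. In T cells, activation and proliferation are accompanied by growth of the mitochondrial mass. Genes of this kind are known to be served by the transcription factors NRF1, the ETS factor GABP and YY1.

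The start regions of the members were read first, since they show what the genes share outside the expression tables. RefSeq sequences (GRCm38.p6) of 250 bases before to 50 bases after the gene start were at hand for 67 of the 76 members and for 27025 genes in all, and motifs were searched on both strands as plain letters. The ETS core CCGGAAG was in 23 of the 67 member promoters (34.3%), against 9.12% of all promoters in the table and 19.8% of those of the other genes tested. The YY1 core AANATGGC was in 20 (29.9%), against 6.23% and 9.52%. Of its 23 matches, 10 have their ATG at an annotated start codon, so that the match is also the beginning of the coding sequence, and 12 members hold a match elsewhere. The NRF1 palindrome GCGCATGCGC was in 3 members (4.48%, against 0.977% and 2.26%). The E-box CACGTG (7.46%, against 7.24% and 10.5%) and CCAAT (40.3%, against 37.9% and 39.8%) were about as frequent as elsewhere. Of the members, 36 held an ETS or YY1 core and 7 held both, and no match overlapped a match of another motif. The median GC content was 58.0% in member promoters, 52.7% in all and 60.7% in those of the other genes tested, so these shares are a description and no match is shown to be a bound site.

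Examples follow, each 5′ to 3′ on the strand of its gene, with the match and 10 bases on each side and the matching letters in capitals. Positions are counted from the gene start. The ETS core is shown for highly expressed members and for Mrps16, and it stands in reverse complement in Mrpl52 and Mrps16.
Mrpl33 (chr5:31613938-31613964, + strand, 3 bases before the start): cgcgcatgccCCGGAAGtagtcgttga
Mrpl27 (chr11:94653726-94653752, + strand, 55 bases before the start): tccgcaagacCCGGAAGtagatctatc
Mrpl52 (chr14:54426852-54426878, + strand, 47 bases before the start): aagatgtcggCTTCCGGttttcccggc
Mrps16 (chr14:20393548-20393574, - strand, 74 bases before the start): tgggggcgctCTTCCGGgcttcaggct
The YY1 core is shown at start codons in Mrpl35 and Mrpl27 and upstream of the gene in Mrps11.
Mrpl35 (chr6:71823744-71823771, - strand): ggcaggctgcAAGATGGCggcttccatc
Mrpl27 (chr11:94653789-94653816, + strand): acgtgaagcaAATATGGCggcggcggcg
Mrps11 (chr7:78783014-78783041, + strand): tacgggcgccGCCATCTTtctgtcttcc
The palindrome is shown for all 3 members that hold it.
Mrpl9 (chr3:94443298-94443327, + strand, 28 bases before the start): aggcgcagctGCGCATGCGCggggtccttc
Mrpl32 (chr13:14613105-14613134, - strand, 87 bases before the start): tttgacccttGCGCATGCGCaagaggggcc
Mrpl39 (chr16:84735350-84735379, - strand, 125 bases before the start): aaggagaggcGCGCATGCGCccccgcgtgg

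Mrpl44 and Mrpl23, which had the highest and the lowest log2 change among the members as deposited, hold none of the 5 motifs in these windows. The longest stretch before each start that overlaps no annotated exon is shown because the pair contrasts in base composition, with a GC content of 63.5% over 181 bases in Mrpl23 and of 32.8% over 192 bases in Mrpl44. An exon of Wdfy1 overlaps the Mrpl44 window, so its stretch ends farther from the start than that of Mrpl23. The contrast is between these stretches only.
Mrpl23 (chr7:142532831-142533011, + strand, ending 20 bases before the start): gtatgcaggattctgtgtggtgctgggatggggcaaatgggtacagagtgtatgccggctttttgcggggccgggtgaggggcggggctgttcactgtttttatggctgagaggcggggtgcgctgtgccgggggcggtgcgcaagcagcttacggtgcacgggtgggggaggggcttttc
Mrpl44 (chr1:79775768-79775959, + strand, ending 58 bases before the start): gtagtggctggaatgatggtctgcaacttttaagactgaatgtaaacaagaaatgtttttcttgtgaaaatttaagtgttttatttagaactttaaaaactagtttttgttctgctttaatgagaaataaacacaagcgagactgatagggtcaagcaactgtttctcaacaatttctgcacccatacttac
The absence of a match says only that these letters are not in these windows. As a description across members, those with the ETS core had a median log2 change of -0.18 (23 members) and those without it of 0.01 (44 members), and the medians were -0.10 (20 members) and 0.01 (47 members) with and without the YY1 core. For the other motifs the holders' median was the higher one, with 0.14 and -0.01 with and without the NRF1 palindrome (3 and 64 members), 0.13 and -0.01 for the E-box (5 and 62) and 0.02 and -0.13 for CCAAT (27 and 40).

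All 76 members were expressed at 1 FPKM or more in every library, so all of them passed the filter on low values and entered the test. Their median level was 12.1 and 14.2 FPKM in WT 1 and WT 2 and 13.7 and 12.7 FPKM in KO 1 and KO 2, and the groups overlap. The summed level of the family was 1338 and 1505 FPKM in WT 1 and WT 2 and 1402 and 1215 FPKM in KO 1 and KO 2, or 0.407%, 0.367%, 0.422% and 0.374% of all FPKM. Neither sum nor share separates the groups. With 2 libraries against 2, an exact permutation test cannot give a two-sided p below 0.333, so these sums were not tested.

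The members span a 46.1-fold range of mean level, and their order was nearly the same in both groups (Spearman rho 0.963 between group means over 76 members, which share their libraries and their transcript lengths). Mrpl33, the counterpart of a small zinc-binding protein of the bacterial large subunit, was first in both groups, at 94.2 and 93.5 FPKM in the WT libraries and 81.6 and 64.9 FPKM in the KO libraries. The KO libraries were both below the WT libraries. Mrps21 (75.8, 77.8, 75.4 and 53.9 FPKM in WT 1, WT 2, KO 1 and KO 2) and Mrpl52 (77.1, 77.3, 62.0 and 63.3 FPKM) came next and did not differ from each other beyond their spread, at 76.8 ± 1.43 and 77.2 ± 0.110 FPKM in WT (SD, n = 2). Mrps21 is a small-subunit protein with a bacterial counterpart, and Mrpl52 a mitochondrion-specific protein of the large subunit.

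Mrpl27, whose bacterial counterpart reaches towards the peptidyl transferase centre, stood at 68.7, 58.8, 59.3 and 47.3 FPKM, with overlapping groups. Mrps18c, 1 of 3 mitochondrial relatives of a single bacterial protein, stood at 49.3, 58.7, 59.1 and 39.2 FPKM, with the KO libraries on either side of the WT libraries. Mrpl30 stood at 52.7, 63.3, 44.1 and 41.1 FPKM, with both KO libraries lowest. At the other end, Mrpl17 was last in both groups (1.77, 1.74, 2.14 and 1.59 FPKM). Mrpl17 belongs to the large subunit, and its libraries overlapped. Mrps27, an RNA-binding protein with pentatricopeptide repeats, was the second lowest (3.0, 3.04, 3.96 and 4.36 FPKM), and Mrpl11, at the base of the ribosomal stalk, the third lowest (4.17, 4.07, 3.0 and 3.52 FPKM). Neither pair of groups overlaps, with KO above WT for Mrps27 and below it for Mrpl11, and neither difference passed the test (adjusted p = 0.152 and 0.270).

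**Figure D1:**
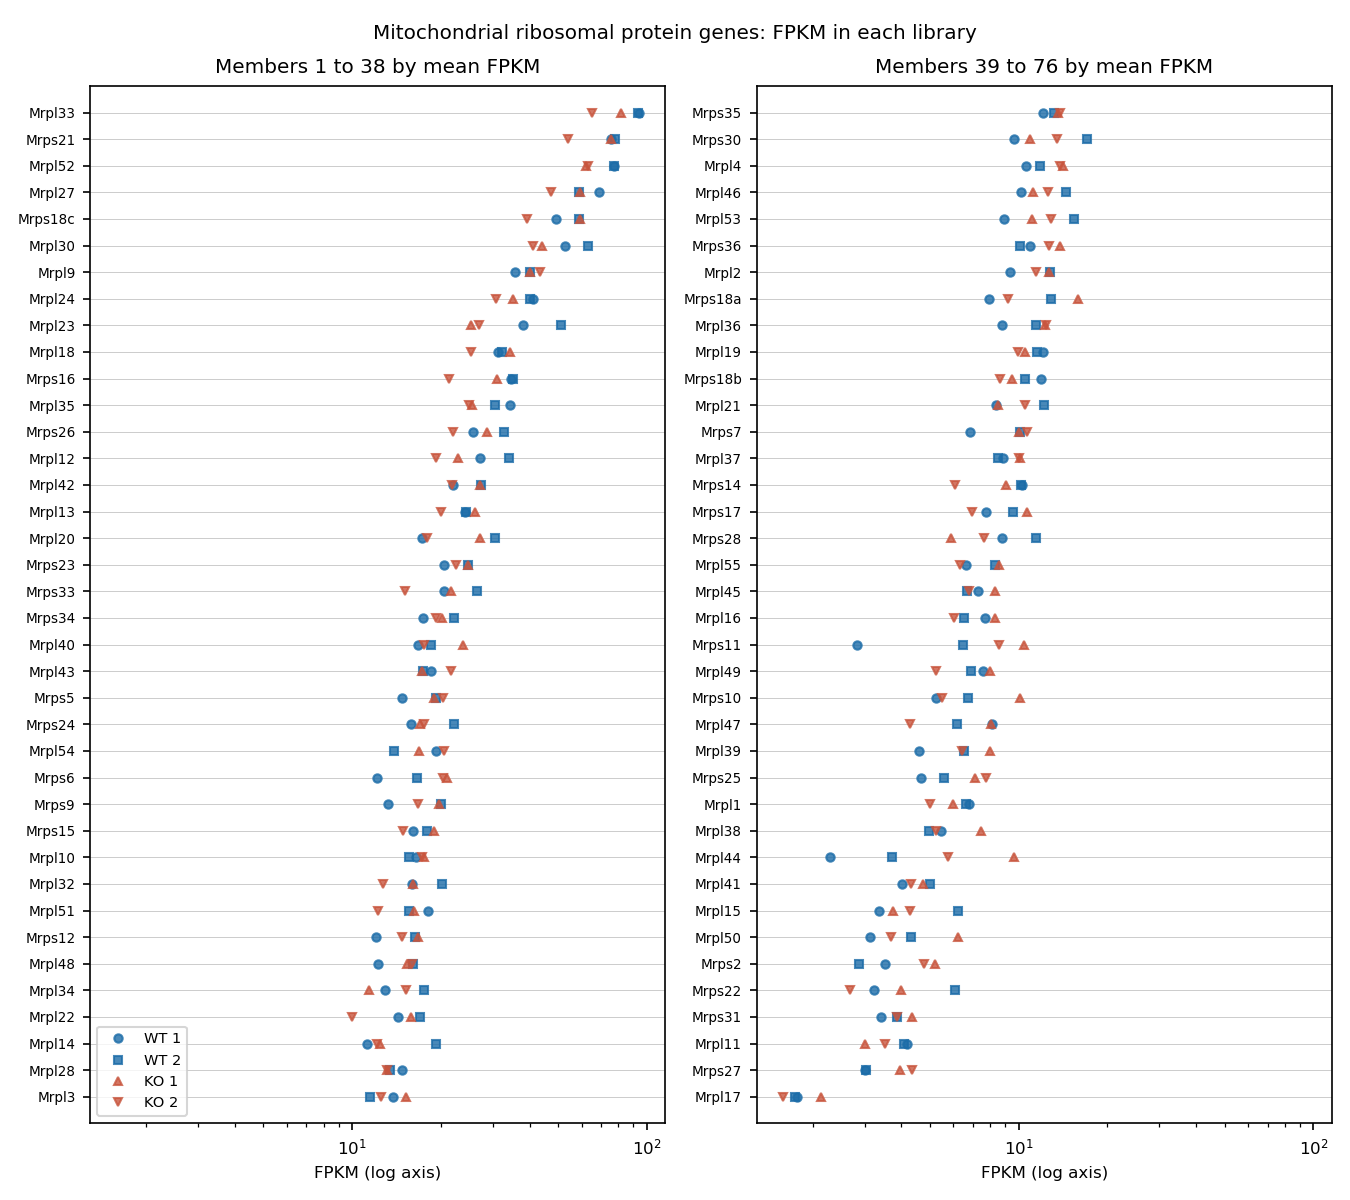
FPKM (log axis) of each of the 76 members in WT 1, WT 2, KO 1 and KO 2, ordered by mean level in 2 panels, with 1 point per library. The blue WT and red KO points are interleaved for most members, and Mrpl23 and Mrpl44 stand out with KO points wholly to the left and to the right of the WT points.

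Whether the members differed between the libraries labelled KO and WT was tested with limma on log2(FPKM + 1), together with the other 10998 genes that reached 1 FPKM in at least 2 libraries. Mrpl44 alone was called higher at an adjusted p under 0.05 (Benjamini-Hochberg over 11074 genes), and 0 members were called lower. Without adjustment, limma gave p under 0.05 for 4 members higher and 2 lower. The 1 member called higher is 1.32% of the 76, beside 25.6% of all genes tested called higher and 1.0% called lower. With all libraries 2832 genes were called higher and 111 lower. These all-gene counts depend on single libraries, most of all on WT 1, without which nearly all calls were lost. The counts changed less when another library was left out, and each such fit leaves 1 library in a group.

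The members' median log2 change was -0.01, with an interquartile range of -0.24 to 0.16, where the median over all genes tested was 0.38 with a range of 0.03 to 0.72. Below that all-gene median lay 71 of the 76 members. The exceptions were Mrpl44, Mrps11, Mrps2, Mrps6 and Mrps25. The 95% interval of the change lay within 1 log2 unit of 0 for 69 members and wholly below the all-gene median for 23. As deposited, a change of 1 log2 unit or more is thus outside the interval for these 69 members, while smaller changes were not resolved. This bound does not carry over to trimmed-mean scaling, described below, where Mrpl23 and Mrpl12 stood at -1.21 and -0.98.

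Counted by library, both KO values were above both WT values in 14 members, against 58.5% of all genes tested, and below in 16, against 12.1%, while the groups overlapped in 46. Between single libraries, the members' median size of difference was 0.21 to 0.29 on the log2 scale over the 4 pairs of a KO and a WT library, and 0.26 between WT 1 and WT 2 and 0.25 between KO 1 and KO 2. Over all genes tested it was 0.37 to 0.56 for the 4 pairs between groups, and 0.25 and 0.18 within groups. Within the groups WT 2 was above WT 1 in 52 of the 76 members (68.4%, against 68.2% of all genes tested), and KO 2 was below KO 1 in 55 (72.4%, against 58.0%).

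**Figure D2:**
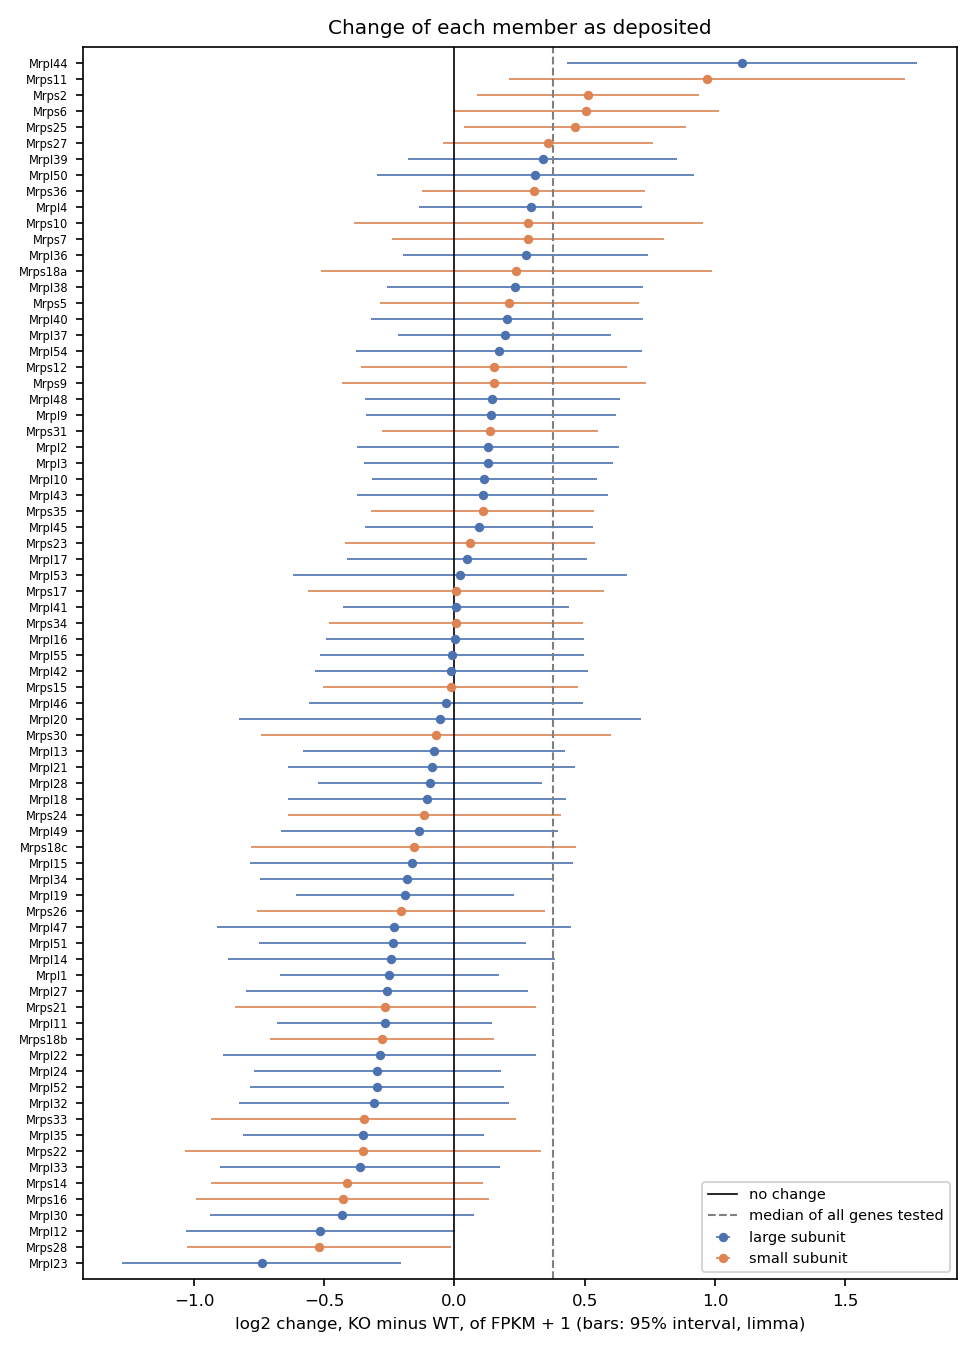
Log2 change of FPKM + 1 (KO minus WT, as deposited) of each member with its 95% interval from limma, by subunit, with a solid line at no change and a dashed line at the median of all genes tested (0.38). Mrpl44 lies farthest to the right at 1.10 and Mrpl23 farthest to the left at -0.74, and 71 of 76 points lie left of the dashed line.

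Mrpl44, a large-subunit protein with a fold related to ribonuclease III, stood at 2.29, 3.73, 9.66 and 5.75 FPKM in WT 1, WT 2, KO 1 and KO 2. Both KO libraries were above both WT libraries, and the KO libraries differed from each other by more than the WT libraries did. Its mean was 2.56-fold higher (log2 change 1.10 ± 0.28 SE, limma adjusted p = 0.0326), and it moved from place 75 to place 56 in the order of the members. The values rest on an estimated 59.8, 100.5, 207 and 134 fragments. The call was lost without WT 1 (adjusted p = 0.186), without WT 2 (0.0544) and under both scalings (0.107 and 0.152). An exon of Mrpl44 overlaps Wdfy1 on the opposite strand in GENCODE M21, and whether the counting used strand was not given in the sources used here. Wdfy1 itself was at 10.3, 10.3, 11.2 and 11.1 FPKM.

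Mrps11, a protein of the small-subunit platform, stood at 2.83, 6.49, 10.5 and 8.60 FPKM in WT 1, WT 2, KO 1 and KO 2. The groups do not overlap, and WT 1 stood well below the other 3 libraries. The log2 change was 0.97 ± 0.32 SE and missed the threshold (adjusted p = 0.0638), although it passed without WT 2 (0.0420), without KO 1 (0.0294) and without KO 2 (0.00316), and not without WT 1 (0.201). Exons of Mrps11 and of another member, Mrpl46, overlap on opposite strands. Mrpl46, a large-subunit protein, was at 10.2, 14.5, 11.2 and 12.6 FPKM, with overlapping groups.

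Mrps2, a small-subunit protein found in all ribosomes, was at 3.53, 2.88, 5.21 and 4.77 FPKM (log2 change 0.51 ± 0.18 SE, adjusted p = 0.0731). Mrps6, whose bacterial counterpart pairs with a protein related to Mrps18c, was at 12.2, 16.6, 21.01 and 20.3 FPKM (0.51 ± 0.21, adjusted p = 0.121). In both genes the KO libraries were above the WT libraries, without passing the test. Mrps6 overlaps Slc5a3, an inositol transporter gene on the same strand, which was at 0.675, 0.902, 1.5 and 1.9 FPKM. In all, exons of 32 members overlap another annotated gene, so that their reads may be shared.

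The 4 lowest log2 changes were all in genes with bacterial counterparts, as most members are, and none passed the test as deposited. Mrpl23, at the exit of the peptide tunnel, stood at 38.05, 51.2, 25.3 and 26.9 FPKM in WT 1, WT 2, KO 1 and KO 2. The KO libraries lay close together below both WT libraries, with a mean 0.584 times that of WT (log2 change -0.74 ± 0.22 SE, adjusted p = 0.0512). Mrps28 in the small subunit was at 8.79, 11.5, 5.89 and 7.61 FPKM (-0.52 ± 0.21, adjusted p = 0.111). Mrpl12, a protein of the stalk that recruits translation factors, was at 27.1, 34.1, 22.9 and 19.2 FPKM (-0.51 ± 0.22, adjusted p = 0.119), and for Mrpl30, given above, the change was -0.43 ± 0.21 (adjusted p = 0.166). In each of these 4 genes both KO libraries were below both WT libraries, as in 16 of the 76 members. The 4 were picked by their change in the same libraries.

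By role, the median log2 change was -0.06 over the 47 large-subunit members (1 called higher, 0 lower) and 0.06 over the 29 small-subunit members (0 and 0). At an unadjusted limma p under 0.05, 1 large-subunit member was higher and 1 lower, and 3 small-subunit members were higher and 1 lower. The median was -0.10 over the 46 members with a bacterial counterpart (0 called in either direction, with 2 higher and 2 lower unadjusted) and 0.08 over the 30 mitochondrion-specific ones (1 higher, Mrpl44). Across the members, a higher WT level went with a lower change (Spearman rho -0.490, n = 76, with the WT values entering both measures).

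As deposited, the median gene was 0.38 higher on the log2 scale in KO than in WT. Cytosolic ribosomal protein genes took up 36.4% and 38.6% of all FPKM in WT 1 and WT 2 but 22.2% and 22.5% in KO 1 and KO 2, and FPKM is a share of the library. What part this share has in the higher median was not tested. The fit was also repeated after trimmed-mean scaling, which brought the median of all genes tested to -0.01, and after quantile normalization (-0.02). With trimmed-mean scaling 0 members were called higher (1 at an unadjusted p under 0.05) and 10 lower: Mrpl12, Mrpl23, Mrpl24, Mrpl30, Mrpl32, Mrpl33, Mrpl35, Mrpl52, Mrps16 and Mrps28. The background was then 4.68% of all genes tested higher and 5.2% lower. Of the 10, 8 belong to the large subunit, as do 47 of the 76 members, and 9 have a bacterial counterpart, as most members do. Both KO values were below both WT values in 61 members and above in 2, against 33.5% and 31.9% of all genes tested.

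Under this scaling Mrpl23 changed most among the members (log2 change -1.21, adjusted p = 0.0209), and the 5 calls with the next smallest p-values were Mrpl12 (-0.98, 0.0293), Mrps28 (-0.95, 0.0425), Mrpl30 (-0.90, 0.0291), Mrpl33 (-0.84, 0.0438) and Mrpl52 (-0.77, 0.0429). The members' median, level as deposited, was -0.46 under this scaling, and their scaled sum was 1678 ± 20.9 in WT against 1105 ± 76.4 in KO (SD, n = 2). With quantile normalization only Mrpl23 was called (-1.07, adjusted p = 0.0442), against 1.62% of all genes higher and 0.695% lower. Relative to the median gene the members' median was -0.39 as deposited, -0.45 with trimmed-mean scaling and -0.41 with quantile normalization. In RNA from whole cell samples, fewer cells of a type and less RNA per cell cannot be told apart.

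**Figure D3:**
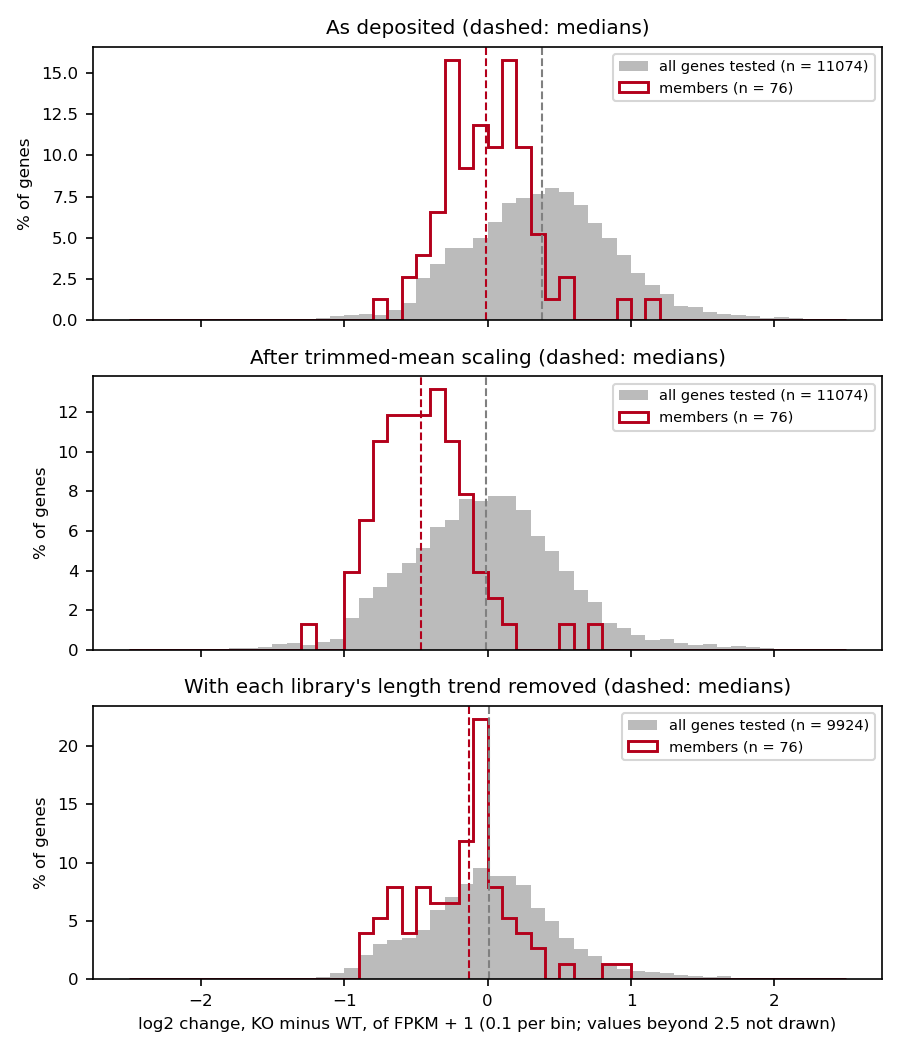
Share of genes by log2 change (KO minus WT, bins of 0.1) for all genes tested (grey) and the 76 members (red outline) as deposited, after trimmed-mean scaling and with each library's length trend removed, with dashed lines at the medians. The members' median lies left of that of all genes by 0.39, 0.45 and 0.14 on the log2 scale.

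Transcript length moved with the change. Over 9924 genes tested with a length in GENCODE M21, longer transcripts had larger log2 changes (Spearman rho 0.325), and the members' transcripts were short (median 1284 nt, against 2826 nt). Lengths are those of the principal GENCODE transcript and may not be those behind the FPKM values. Among all 1638 genes tested of 500 to 1500 nt the median log2 change was 0.08 and 9.28% were called higher, while the 44 members of that length had a median of -0.01 and 1 was called higher. When each library's trend on length was removed, the members' median relative to the median gene was -0.14, and 0 members were called in either direction (3 higher and 18 lower at an unadjusted limma p under 0.05, smallest adjusted p = 0.0546, for Mrpl35). The background was then 1.91% higher and 0.897% lower.

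The difference from other genes of like length was not the same across the range. From 500 to 1000 nt the 22 members had a median of -0.01 and all genes of -0.04, and from 1000 to 1500 nt the 22 members had a median of 0.03 and all genes of 0.14. From 3000 to 5000 nt the medians were -0.20 for 14 members and 0.50 for 2873 genes, and all 14 members lay below that class median, between -0.35 (Mrpl35) and 0.21 (Mrps5). Only in these 3 classes were there more than 6 members. Across the 76 members, length and change had a Spearman rho of 0.140. What part length has in the members' values was not tested further.

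**Figure D4:**
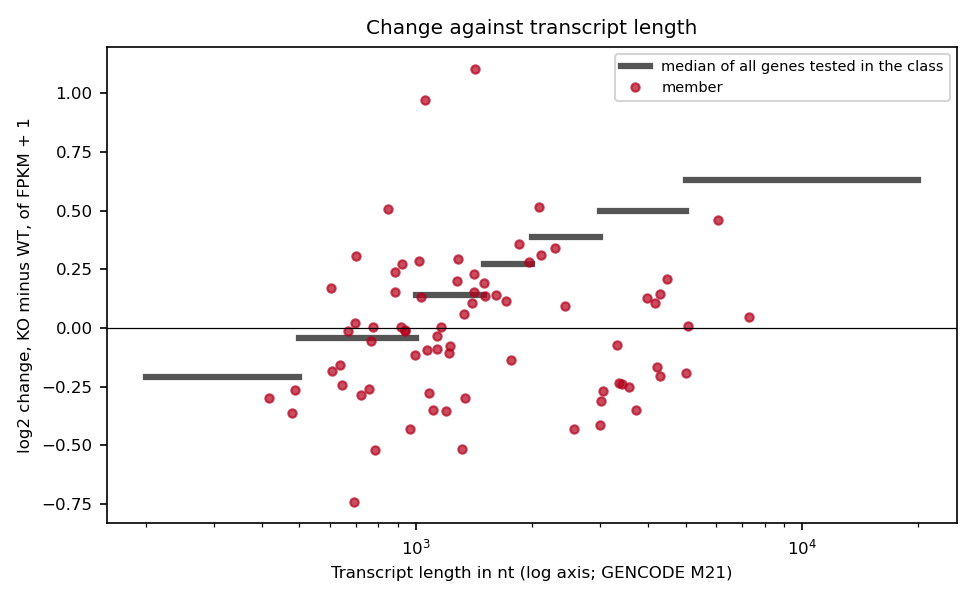
Log2 change of each member (red points) against the length of its principal transcript in nt (log axis), with dark bars at the median change of all genes tested in each length class. The class medians rise from -0.21 below 500 nt to 0.63 above 5000 nt, and the 14 members between 3000 and 5000 nt all lie below the bar of their class.

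Other genes of mitochondrial translation were read from lists by role. The 7 mitochondrial ribosomal proteins that go by other symbols had a median log2 change of -0.17 with 0 called (limma, 0 higher and 1 lower at an unadjusted p under 0.05). Among them Chchd1, a small-subunit protein, was at 32.3, 36.4, 24.1 and 18.9 FPKM. Its KO libraries were below its WT libraries, with a log2 change of -0.66 ± 0.21 SE (adjusted p = 0.0619) as deposited and -1.12 (adjusted p = 0.0241) with trimmed-mean scaling. Ict1, a peptidyl-tRNA hydrolase built into the large subunit, was called only with trimmed-mean scaling (-0.69, adjusted p = 0.0497).

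Of 14 translation factors, 2 were called higher as deposited (14.3%, below the 25.6% of all genes tested). Gfm2, an elongation factor relative that acts in ribosome recycling, was at 2.77, 3.02, 6.22 and 5.98 FPKM (log2 change 0.87 ± 0.17 SE, adjusted p = 0.0179). Oxa1l, the inner membrane insertase for newly made proteins, was at 4.63, 6.09, 10.8 and 9.68 FPKM (0.83 ± 0.19, adjusted p = 0.0265). In both genes the KO libraries stood clear above the WT libraries. The median of the 14 was 0.15, and Tufm, the elongation factor that delivers aminoacyl-tRNA, was at 14.8, 15.7, 24.03 and 14.5 FPKM with overlapping groups.

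Of 26 genes for assembly of the mitochondrial ribosome and modification of its RNA, 1 was called higher (3.85%, against 25.6% of all genes tested), with a list median of 0.16. This was Ddx28, an RNA helicase of large-subunit assembly, at 2.01, 2.16, 5.91 and 6.86 FPKM (log2 change 1.26 ± 0.17 SE, adjusted p = 0.0129), and it was also higher with trimmed-mean scaling (0.88, adjusted p = 0.0418). Its KO libraries were both far above its WT libraries. Of 13 tested genes of mitochondrial transcription and RNA processing, 3 were called higher (23.1%): Elac2, which cuts the 3′ ends of tRNAs, Mtpap, the mitochondrial poly(A) polymerase, and Pnpt1, an exoribonuclease. Their log2 changes were 0.69, 0.63 and 0.70 (adjusted p = 0.0334, 0.0378 and 0.0417), and the list median was 0.28. The packaging and transcription factor Tfam was level, at 13.1, 14.5, 14.5 and 12.8 FPKM. The gene for the elongation factor Tefm, listed under an older symbol, did not pass the filter.

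Of 20 mitochondrial aminoacyl-tRNA synthetases and related genes 3 were called higher (15%, against 25.6% of all genes tested), with a list median of 0.22 where that of all genes was 0.38. They were Fars2 (log2 change 0.82, adjusted p = 0.0245), Vars2 (0.75, 0.0356) and Aars2 (0.62, 0.0439), which charge tRNAs with phenylalanine, valine and alanine. Lars2, for leucine, went the other way at 44.3, 47.0, 23.9 and 32.7 FPKM. Its KO libraries were below its WT libraries, which was called with trimmed-mean scaling (-1.15, adjusted p = 0.0348) and not as deposited (-0.69, adjusted p = 0.0652).

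The upstream regulators named in the background were expressed in every library. Nrf1 was at 7.53, 9.19, 13.2 and 13.6 FPKM (log2 change 0.63 ± 0.19 SE, limma adjusted p = 0.0492). It was the 1 gene called of 8 tested, where 25.6% of all genes tested were called higher. Gabpa, the ETS subunit of GABP, was at 5.45, 7.40, 10.9 and 9.16 FPKM (0.58, adjusted p = 0.0798), and Yy1 was at 23.0, 28.7, 33.4 and 31.6 FPKM (0.33, adjusted p = 0.262). In all 3 genes the KO libraries were above the WT libraries, as they were in 58.5% of all genes tested. With a list median of 0.31 these genes lay near the median gene, and with trimmed-mean scaling the changes of Nrf1, Gabpa and Yy1 were 0.19, 0.15 and -0.14. Ppargc1a, the coactivator PGC-1alpha, stayed under 1 FPKM in all 4 libraries and was not tested. Over these 6 lists 10 of 88 genes tested were called higher (11.4%, against 25.6% of all genes tested) and 0 lower as deposited (limma, with 18 higher and 3 lower at an unadjusted p under 0.05), against 1 higher and 3 lower with trimmed-mean scaling. The 10 calls came to 0 without WT 1, 5 without WT 2, 3 without KO 1 and 6 without KO 2.

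Of the gene families nearest in kind, the nuclear genes of the respiratory chain and ATP synthase had a median change close to that of the members as deposited, and the cytosolic ribosomal protein genes a lower one. Among 78 tested respiratory genes the median log2 change was -0.05, with 0 called higher and 2 lower. These were Ndufa2, a subunit of complex I (139, 136, 61.5 and 79.6 FPKM), and Atp5e, a subunit of ATP synthase (316, 349, 182 and 165 FPKM). In both, the KO libraries were below the WT libraries, and neither was called without WT 1, without KO 1 or without KO 2. Among 79 tested cytosolic ribosomal protein genes the median was -0.88, with 0 called higher (limma, 0 at an unadjusted p under 0.05) and 32 lower. Relative to the median gene, the cytosolic list stood at -1.26 as deposited, -1.35 with trimmed-mean scaling, -0.85 with the length trend removed and -0.17 with quantile normalization. The members stood between -0.45 and -0.14 under the same settings. With quantile normalization they stood at -0.41, below the cytosolic list. Both the distance between these families and their order thus depend on the setting. The 32 calls in the cytosolic list also depend on single libraries, with 0 lower without WT 1, 49 without WT 2, 0 without KO 1 and 1 without KO 2. No test of the difference between the families was made.

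**Figure D5:**
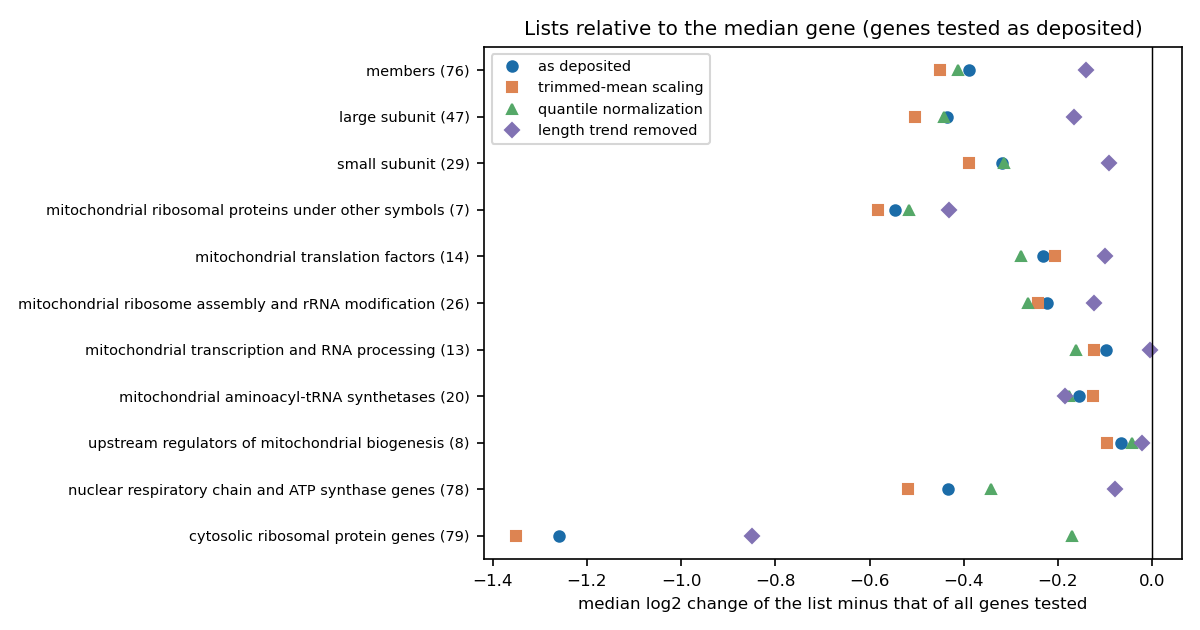
Median log2 change of each list minus that of all genes tested, in 4 settings, with the number of genes tested as deposited in parentheses. The members stand at -0.39, -0.45, -0.41 and -0.14 as deposited, with trimmed-mean scaling, with quantile normalization and with the length trend removed, and every symbol of every list lies left of 0.

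Markers of cell types and of proliferation differed between the groups beside these results. The T cell markers (6 of 6 tested, 2 higher) summed to 752 and 984 FPKM in WT and 1181 and 1135 FPKM in KO, and the 2 higher ones were Cd4 (86.3, 87.3, 211 and 185 FPKM) and Cd3e (61.3, 76.9, 151 and 129 FPKM). Cd3d was at 185, 238, 175 and 169 FPKM, with both KO libraries below both WT libraries, which was called lower with trimmed-mean scaling (adjusted p = 0.0422) and not as deposited, and Cd3g overlapped. Of the CD8 markers, Cd8a stayed under 1 FPKM and Cd8b1 was at 10.9, 10.5, 10.3 and 11.3 FPKM. Of 8 proliferation markers 7 were higher (summed 109 and 176 FPKM in WT, 220 and 188 FPKM in KO), Mki67 from 0.939 and 0.937 to 21.7 and 9.39 FPKM. Pcna, the 1 not called, made up most of these sums. It was at 94.6, 161, 122 and 141 FPKM in WT 1, WT 2, KO 1 and KO 2, with overlapping groups. The erythroid markers summed to 6.33 and 99.4 FPKM in WT and 396 and 321 FPKM in KO, with 6 of 6 tested rows higher and Hbb-b1 under 0.1 FPKM in every library. The B cell markers summed to 6.62 and 6.51 FPKM against 14.2 and 13.6 FPKM (2 of 3 tested higher), and the myeloid markers to 0.992 and 2.22 FPKM against 3.94 and 5.61 FPKM (1 of 1 higher). CD8 T cell, dendritic cell and platelet markers had 0 called of 1 tested in each list, and no NK cell marker passed the filter. The sums of these 4 lists were at most 14.6 FPKM, and so few tests cannot show that these cells were level. The part of these cells and of cell division in the members' values was not tested.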

How the data were processed

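For each library the authors deposited a table of gene symbols with FPKM values, per the file headers. The submitters' processing notes name Bowtie 0.12.2 and, as genome build, mm8. The FPKM program, its annotation and its use of strand were not given in the sources used here. FPKM is a share of the library per transcript length, so a few abundant genes can shift all others.

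The 11074 genes that reached 1 FPKM in 2 or more of the 4 libraries were tested with limma 3.58.1 (intensity trend, R 4.3.3) on log2(FPKM + 1), two-sided, with Benjamini-Hochberg adjustment over all of them and a threshold of 0.05. This scale understates the change of low genes. Folds are ratios of mean FPKM. Depth was estimated from the spacing of low values with an assumed fragment length of 200 nt. Of these values 69.0% to 71.0% lay within 5% of whole fragments, too few for a test on counts. Estimated fragments per member in its smallest library ran from 47.4 (Mrpl41) to 1709 (Mrps26).

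Trimmed-mean scaling (over the genes tested, relative to WT 1, trimming 30% of the log ratios and 5% of the mean levels per side) gave factors of 0.791, 0.905, 1.21 and 1.16 for WT 1, WT 2, KO 1 and KO 2. The trend on transcript length (lowess, span 0.3) was removed as an alternative chosen after seeing the data. The other alternatives were quantile normalization, other pseudocounts and filters, no intensity trend, a replicate block and each library left out. The limma test was also run on simulated data with known changes and independent noise. These data held no shift of the median gene, length trend or outlying library, so they cannot check calls that depend on those.

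The members and lists were chosen with earlier results of these data known. Members are named if called, up to 10 in each direction, or if among the 6 highest or 3 lowest in level or the 4 largest rises or falls. With trimmed-mean scaling up to 6 called members in each direction are named, and of each related list up to 4 genes by p. Tufm, Tfam, Ict1, Yy1, Ndufa2 and Atp5e, and the members in the lists of calls, exceptions, sequences and length classes, were added after their values were seen. Synonyms were needed to match 8 of the 90 list symbols. Positions and sequences are from RefSeq (GRCm38.p6) and overlaps from GENCODE M21, not from the build of the files. Tables were made with Python 3.11.15, pandas 2.3.3 and numpy 2.4.6, figures with matplotlib 3.10.9.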

Additional observations from a re-analysis of the deposited data

How the results depend on the processing

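Of 204 values of the 16 named members under alternative settings, 177 kept their direction and their side of the threshold, 14 newly passed it, 6 no longer passed it and 7 reversed. The reversals were Mrps18c (0.13 without KO 2, and -0.45 to 0.13 with each library left out), Mrps27 (-0.017 with trimmed-mean scaling and -0.12 with quantile normalization) and Mrpl17 (-0.26 and -0.32 with the same scalings, -0.093 to 0.19 with each library left out and -0.58 with the length trend removed), and the cause was not tested. None of these 3 genes was called as deposited. With no filter on low values 0 genes, 0 members and 0 list genes were called in either direction. With trimmed-mean scaling 518 genes were called higher and 576 lower, 0 and 10 of the members and 1 and 3 of the list genes. With quantile normalization 179 genes were called higher, 0 members higher and 1 lower, and 0 list genes higher and 1 lower. With the length trend removed 190 genes were called higher, with 0 members higher, and 0 list genes higher and 1 lower. With no intensity trend 1 member (Mrpl23) was called lower, beside 1.32% of all genes tested. Leaving out each library gave 9 to 2189 genes higher and 0 to 123 lower, 0 to 2 members higher, and 0 to 6 list genes higher and 0 to 1 lower. The members' median relative to the median gene was -0.47 with a pseudocount of 0.1, -0.23 with 5, -0.043 with no filter, -0.14 with the length trend removed and -0.43 to -0.28 with each library left out. The rise of Ripk1 was no longer called with no filter (0.73), trimmed-mean scaling (0.31), quantile normalization (0.28) or the length trend removed (0.13), and was 0.67 to 0.79 with each library left out (called only without KO 2). Leaving out a library leaves 1 in its group, which is assumed to vary like the other group.

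Labels number the libraries of both groups 1 and 2 but do not say that equal numbers belong together, and the correlation of same-numbered deviations was 0.108 over all genes tested. With a replicate block 3909 genes (35.3%) were called higher and 230 (2.08%) lower, 3 members higher (Mrpl44, Mrps11 and Mrps2) and 1 lower (Mrpl23), and 15 list genes higher and 1 lower.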

Other observations

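Of the 76 members, 18 have a protein-coding neighbour that starts within 1000 bases in the opposite direction (23.7%, against 11.6% of 9298 protein-coding genes tested, GENCODE M21). The 16 partners tested had a median log2 change of 0.43, near the median gene, and the members they adjoin of 0.06. Of these partners 4 were called higher as deposited (limma, 25.6% of all genes tested) and 0 lower. They were Ncapd2, a condensin subunit that adjoins Mrpl51 (1.70 for Ncapd2 and -0.24 for Mrpl51), Eme2 beside Mrps34 (0.90 and 0.01), Apba3 beside Mrpl54 (0.85 and 0.17) and the histone chaperone gene Hira beside Mrpl40 (0.76 and 0.20). These pairs were named after their values were seen, and the difference within a pair was not tested.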
